A study of Mus musculus with 6 samples.

Results

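The 32 genes described here encode the enzymes of cholesterol and fatty acid synthesis, together with the SREBP regulators that control them and *Stard4*, a carrier of cholesterol between membranes. They were chosen by name as members of these pathways, with earlier results of these data known. Each was matched by its gene symbol to an Ensembl identifier in the count table. All 32 had at least 10 reads over the 6 samples and were among the 11877 genes tested, of 47643 genes in the table. The samples were CD4+ T cells sorted from mouse spleen as *Nr4a3*-Blue+Red+, 2 samples in each of 3 groups. All mice were Tg4 *Nr4a3*-Tocky *Il10*-GFP mice. Their T cells carry a transgenic T cell receptor for a myelin basic protein (MBP) peptide, a Timer reporter of *Nr4a3* whose blue form is newly made and whose red form is mature, and a GFP reporter of *Il10*. Every mouse received 80 μg of [4Y] MBP peptide and, 24 h later, 800 μg of an IgG isotype control, anti-PD1, or anti-Lag3. A second dose of 8 μg of peptide followed 30 min after the antibody, and spleens were taken 4 h after that dose. Mice of both sexes were used in the study, and ages are not given in the sources used here. The transgenic receptor makes this a model of T cells of a single specificity, under peptide given without adjuvant, and with 2 samples in a group the spread within a group is known only roughly. The study excluded a further replicate batch as an outlier, and that batch was not used here.

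Cells build cholesterol from acetyl-CoA through mevalonate, the isoprenoid farnesyl pyrophosphate, squalene, and lanosterol. Fatty acids are built from the same acetyl-CoA through malonyl-CoA and palmitate. Both routes are controlled by the SREBP transcription factors. When sterols are scarce in the endoplasmic reticulum, Scap escorts SREBP to the Golgi, where it is cleaved to an active form, and when sterols are plentiful the Insig proteins hold Scap back. SREBP-2 is best known for the sterol genes and SREBP-1 for the fatty acid genes, and the gene for Insig1 is itself an SREBP target. Activated T cells switch these genes on as they grow and prepare to divide.

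Promoter sequences are shown for 4 genes because the values below turn on them. *Elovl6* had the smallest adjusted p of the 32 genes, and *Hmgcs1*, *Cyp51*, and *Insig1* were among 7 genes lowest in the first and highest in the second anti-Lag3 sample. The others of the 7 (*Acss2*, *Idi1*, *Stard4*, and *Fasn*) are not printed, and no promoter was matched for *Stard4*. Each run holds the 250 bases before the RefSeq transcription start on build GRCm38.p6, written 5′ to 3′ on the strand of the gene. *Hmgcs1* lies at chr13:119690101-119690350 on the plus strand, *Cyp51* at chr5:4104698-4104947 on the minus strand, *Insig1* at chr5:28071162-28071411 on the plus strand, and *Elovl6* at chr3:129532136-129532385 on the plus strand. Capitals mark 3 motifs searched on both strands: CACCCCAC, the core of a sterol response element bound by SREBP, CACGTG, an E-box, and CCAAT, the box bound by NF-Y, a usual partner of SREBP (ATTGG where it lies on the other strand). No marked motif overlaps another in these runs.
Hmgcs1: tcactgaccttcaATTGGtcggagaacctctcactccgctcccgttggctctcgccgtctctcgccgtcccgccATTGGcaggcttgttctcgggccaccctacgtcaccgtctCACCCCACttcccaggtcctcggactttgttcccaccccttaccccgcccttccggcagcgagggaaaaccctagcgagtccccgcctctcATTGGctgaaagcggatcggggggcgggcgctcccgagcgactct
Cyp51: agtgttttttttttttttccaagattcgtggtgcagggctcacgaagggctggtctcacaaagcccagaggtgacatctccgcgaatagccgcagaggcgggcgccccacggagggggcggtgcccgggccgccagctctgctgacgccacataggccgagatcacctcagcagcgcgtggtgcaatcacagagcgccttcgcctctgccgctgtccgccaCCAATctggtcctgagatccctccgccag
Insig1: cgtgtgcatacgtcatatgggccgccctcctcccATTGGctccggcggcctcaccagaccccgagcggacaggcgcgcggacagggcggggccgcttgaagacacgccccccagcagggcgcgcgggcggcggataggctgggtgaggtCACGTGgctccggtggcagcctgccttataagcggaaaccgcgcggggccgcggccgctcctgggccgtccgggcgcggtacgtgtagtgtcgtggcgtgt
Elovl6: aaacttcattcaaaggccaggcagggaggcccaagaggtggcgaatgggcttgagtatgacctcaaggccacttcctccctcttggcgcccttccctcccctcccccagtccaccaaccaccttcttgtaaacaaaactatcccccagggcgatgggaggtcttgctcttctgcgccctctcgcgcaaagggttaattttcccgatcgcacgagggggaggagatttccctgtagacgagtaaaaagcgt

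A RefSeq promoter was matched for 26 of the 32 genes. The first base of the sterol response element core in *Hmgcs1* lies at -136 from the start, and its 3 CCAAT boxes lie at -237, -176, and -45. *Insig1* holds an E-box at -101 and a CCAAT box at -216, and *Cyp51* a CCAAT box at -29. The *Elovl6* run holds none of the 3 motifs. In *Acss2*, *Idi1*, and *Fasn*, whose runs are not printed, only CCAAT boxes were found. The 26 genes matched have 34 promoter windows between them, since some have more than 1 start. The sterol response element core was found in 2 of the 34 (5.88%), those of *Hmgcs1* and *Acat2*, against 2.575% of all 32851 promoter windows of the same length. The E-box was found in 5 of the 34 (14.7%), against 6.021% of all windows, and the CCAAT box in 22 of the 34 (64.7%), against 33.85% of all windows. These are matches of letters and not measured binding sites. Only the exact letters given were searched, so a window without a match may still hold a variant of the motif.

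Total counts ran from 2107715 to 2648920 per sample, and 3 reads in a sample corresponded to 1.11 to 1.44 CPM (reads over the library total, scaled to a common size with TMM factors). The reads were primed on the poly(A) tail and therefore count the 3′ ends of transcripts. CD4 T cell markers were all detected (10 of 10, summed 2392 to 2769 CPM). With anti-PD1 against isotype, 3 of the 10 were higher and 7 lower, with a median log2 fold change of -0.22, and 4 of the lower ones (*Cd3e*, *Cd3d*, *Cd4*, and *Trbc2*, -0.38 to -0.21) had an unadjusted p under 0.05 but did not pass the test. Markers of other cells were low but not evenly spread. The B cell list (6 of 7 genes tested) summed to 115 to 130 CPM in the isotype samples, 54.4 to 65.2 CPM with anti-PD1, and 82.7 to 122 CPM with anti-Lag3, with *Cd79a* at 0 in all samples. The macrophage list (8 of 8) summed to 55.5 to 74.5 CPM, 19.2 to 35.2 CPM, and 35.0 to 35.7 CPM in the same order, and the CD8 pair to 48.3 to 54.7, 29.8 to 34.5, and 32.7 to 33.7 CPM. Dendritic markers (1 of 5 tested) summed to 27.8 to 40.5 CPM with *Clec9a* at 0 in all samples, and erythroid markers (4 of 5) to 18.7 to 50.5 CPM. *Ighm*, *Igkc*, and the macrophage gene *C1qa* fell with anti-PD1 against isotype and passed the test (edgeR, adjusted p = 0.0084, 0.0013, and 0.0266). *Cd5* rose and was the only gene of the CD4 T cell list to pass (adjusted p = 0.0015). What part these other cells had in the values below was not tested.

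The first comparison was anti-PD1 with isotype, which addresses whether T cells re-activated under PD1 blockade differ beyond their number. None of the 32 genes passed the test (edgeR, adjusted p under 0.05), where 0.901% of all genes did. The nearest were *Elovl6*, the elongase that turns palmitate into stearate, and *Srebf1*, which encodes SREBP-1, and both stood at about the same fold above isotype. DESeq2, limma-voom, and edgeR’s newer quasi-likelihood method also passed 0 of the 32 in each of the 3 comparisons. Between the blockades, however, DESeq2 gave no adjusted p for some of the genes. *Sqle*, *Srebf1*, *Acat2*, *Insig1*, *Pmvk*, *Fdft1*, and *Elovl6* were among these, so they could not pass with DESeq2 there. At an unadjusted p under 0.05 there were 4 of the 32 genes (12.5%), where 8.12% of all genes were past that level. *Elovl6* and *Srebf1* were higher, and *Acat2* and *Pmvk*, which act early in the sterol route, were lower. Over all 32 genes 13 were higher and 19 lower, with a median log2 fold change of -0.11 and a range of -2.08 to 1.01, while the median over all genes tested was 0.00 with 49.3% lower.

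**Figure D1:**
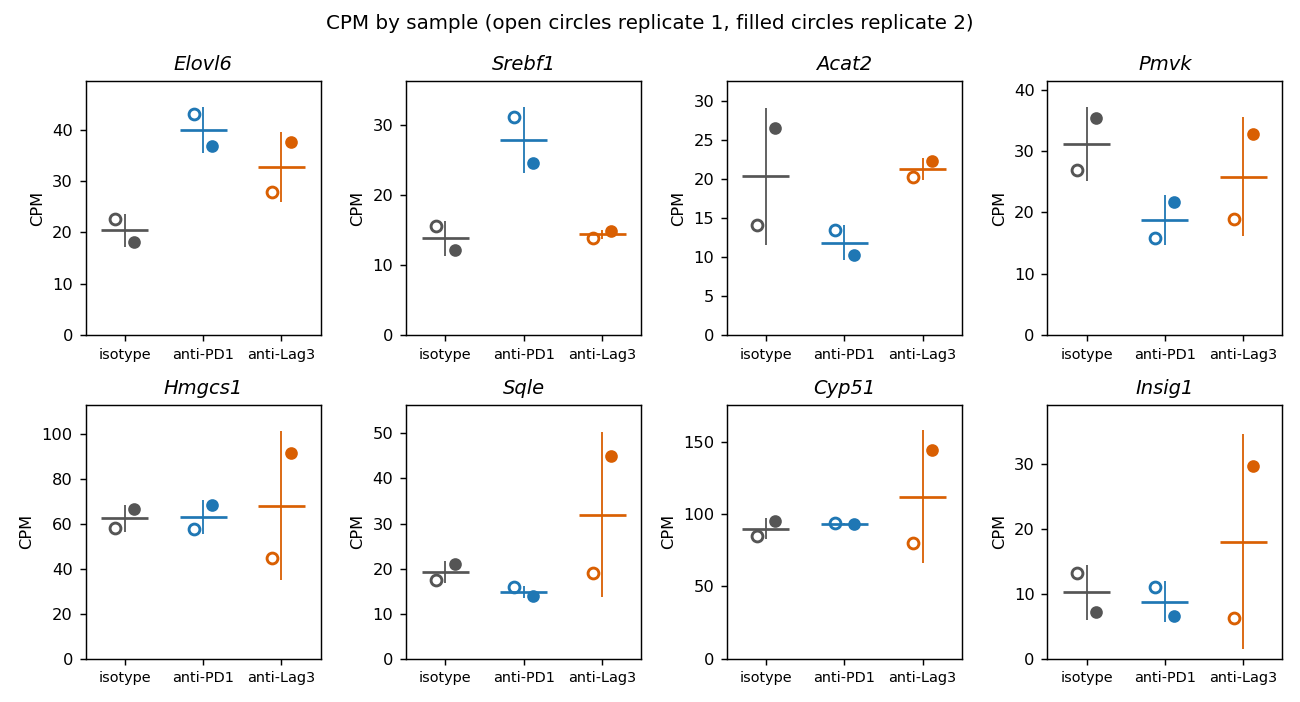
CPM of 8 lipid synthesis genes in each sample, with group on the x axis, open circles for replicate 1, filled circles for replicate 2, horizontal lines for the group mean and vertical lines for the SD. *Elovl6* and *Srebf1* stand higher in both anti-PD1 samples than in both isotype samples, and *Hmgcs1*, *Sqle*, *Cyp51*, and *Insig1* stand highest in anti-Lag3 replicate 2.

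*Elovl6* (chr3:129532355-129638495, GRCm38) measured 22.6 and 18.1 CPM in the isotype samples, 43.1 and 36.8 CPM with anti-PD1, and 27.8 and 37.5 CPM with anti-Lag3. Every anti-PD1 and anti-Lag3 sample was above both isotype samples, and the anti-PD1 and anti-Lag3 samples overlapped. The anti-PD1 mean was 40.0 ± 4.47 CPM against 20.4 ± 3.19 CPM in isotype (SD, 2 samples each). The log2 fold change was 0.97 (SE 0.27, 95% interval 0.43 to 1.52, adjusted p = 0.0679). It kept its direction under all 17 alternatives, where the log2 fold change ran from 0.82 to 1.14 and the adjusted p from 0.0360 to 0.528, and it was past the threshold in 6 of them. Without isotype replicate 2 the adjusted p was 0.493, and without anti-PD1 replicate 1 it was 0.528. The annotation places *Gm43072* on the same strand and *Gm35986* on the other strand within the span of *Elovl6*, and their reads may not be fully separated from it.

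*Srebf1* (chr11:60199089-60222581) measured 15.6 and 12.1 CPM in isotype, 31.1 and 24.5 CPM with anti-PD1, and 13.9 and 14.9 CPM with anti-Lag3. Both anti-PD1 samples were above all 4 other samples, while the isotype and anti-Lag3 samples overlapped. Mean levels were 27.8 ± 4.67 CPM with anti-PD1 and 13.8 ± 2.46 CPM in isotype, a log2 fold change of 1.01 (SE 0.33, 95% interval 0.35 to 1.67, adjusted p = 0.175). Counts at the 3′ end do not separate the SREBP-1a and SREBP-1c transcripts, and *Rai1* overlaps the gene on the other strand. *Srebf2*, which encodes SREBP-2, measured 69.3 and 84.1 CPM in isotype, 63.7 and 76.1 CPM with anti-PD1, and 54.0 and 80.6 CPM with anti-Lag3. Its groups overlapped throughout, and its log2 fold change for anti-PD1 was -0.13 (95% interval -0.52 to 0.25), so a 2-fold difference in *Srebf2* lay outside the interval.

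*Fasn*, the fatty acid synthase that makes palmitate, measured 131 and 132 CPM in isotype and 161 and 151 CPM with anti-PD1, without overlap. With anti-Lag3 it measured 119 and 162 CPM, which spans every other sample. The log2 fold change for anti-PD1 was 0.24 (SE 0.14, 95% interval -0.05 to 0.53, adjusted p = 0.731). *Acaca*, which makes malonyl-CoA for the synthase, ranged only from 40.1 to 50.4 CPM over the 6 samples. The desaturases, which place a double bond in stearate and palmitate, were below isotype on average with anti-PD1. *Scd2* measured 79.6 and 58.0 CPM in isotype, 57.5 and 55.2 CPM with anti-PD1, and 55.2 and 85.1 CPM with anti-Lag3. Its log2 fold change for anti-PD1 was -0.28 (95% interval -0.69 to 0.13). *Scd1* was near the limit of detection, with 7 and 7 reads in isotype, 3 and 0 with anti-PD1, and 4 and 5 with anti-Lag3. The ratio of its pooled CPM, anti-PD1 to isotype, was 0.218 (3 against 14 reads, 95% exact interval 0.0401 to 0.780, counting error only). That interval leaves out the spread between replicates. In the edgeR fit the log2 fold change for anti-PD1 was -2.08 (95% interval -4.88 to 0.71, adjusted p = 0.743), so no difference was established. Of the 5 fatty acid synthesis genes, 2 were thus higher and 3 lower with anti-PD1.

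*Acat2*, the thiolase that joins acetyl-CoA units ahead of the mevalonate route, measured 14.1 and 26.6 CPM in isotype, 13.4 and 10.2 CPM with anti-PD1, and 20.2 and 22.3 CPM with anti-Lag3. Both anti-PD1 samples lay below the other 4, although the lower isotype sample was close. The log2 fold change for anti-PD1 against isotype was -0.80 (SE 0.36, 95% interval -1.53 to -0.08, adjusted p = 0.513). *Acly*, which releases cytosolic acetyl-CoA from citrate, measured 87.2 and 110 CPM in isotype, 86.7 and 118 CPM with anti-PD1, and 113 and 121 CPM with anti-Lag3. The anti-PD1 samples spanned the isotype samples, and the log2 fold change was 0.06 (95% interval -0.27 to 0.39). *Acss2*, which makes acetyl-CoA from acetate, had 5 to 14 reads per sample and was too low for a difference of this size to be seen.

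In the mevalonate arm, *Pmvk* (phosphomevalonate kinase) measured 26.9 and 35.4 CPM in isotype, 15.8 and 21.7 CPM with anti-PD1, and 19.0 and 32.7 CPM with anti-Lag3. The anti-PD1 and isotype samples did not overlap, and the log2 fold change was -0.73 (SE 0.30, 95% interval -1.34 to -0.12, adjusted p = 0.460). *Hmgcs1*, the synthase that opens this arm and the gene with the sterol response element core printed above, measured 58.4 and 66.8 CPM in isotype and 58.0 and 68.7 CPM with anti-PD1. The anti-PD1 pair spanned the isotype pair, with a log2 fold change of 0.02 (95% interval -0.43 to 0.46). *Ggps1*, which makes geranylgeranyl pyrophosphate for protein prenylation, stood at 40.5 and 43.1 CPM in isotype and 32.6 and 34.3 CPM with anti-PD1, a log2 fold change of -0.32 (95% interval -0.79 to 0.15). *Mvk*, *Mvd*, and *Idi1* had 4 to 24 reads per sample, and *Fdps* 32 to 53. Of the 7 genes of the arm, 2 were higher and 5 lower, with a median log2 fold change of -0.15.

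Further down the sterol route, *Sqle*, the squalene epoxidase that is a rate-limiting step, measured 17.4 and 20.9 CPM in isotype and 15.8 and 13.9 CPM with anti-PD1. Those groups did not overlap, and the log2 fold change was -0.38 (95% interval -1.09 to 0.34, adjusted p = 0.883). *Fdft1*, the squalene synthase, measured 2.83 and 5.64 CPM in isotype, 6.71 and 4.50 CPM with anti-PD1, and 10.1 and 5.94 CPM with anti-Lag3, on 6 to 24 reads per sample. *Ctsb* overlaps it on the other strand. *Cyp51*, the lanosterol demethylase, measured 84.8 and 94.99 CPM in isotype and 93.9 and 92.8 CPM with anti-PD1, which lie within the isotype range. Its log2 fold change was 0.05 (95% interval -0.32 to 0.43). The 8 genes from lanosterol to cholesterol split into 4 higher and 4 lower, between -0.23 and 0.30 on the log2 scale.

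Among the SREBP regulators, *Insig1* measured 13.2 and 7.25 CPM in isotype and 11.02 and 6.54 CPM with anti-PD1. These overlapped, with a log2 fold change of -0.22 (95% interval -1.24 to 0.81). *Scap* ranged from 39.1 to 55.0 CPM over the 6 samples and *Insig2*, the second Insig protein, from 4.79 to 11.8 CPM. *Stard4* measured 55.1 and 59.2 CPM in isotype and 61.8 and 73.2 CPM with anti-PD1, without overlap, at a log2 fold change of 0.24 (95% interval -0.16 to 0.65).

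Of the 32 genes, 4 were higher in both anti-PD1 samples than in both isotype samples (*Srebf1*, *Stard4*, *Fasn*, and *Elovl6*), which is 12.5% where 19.2% of all genes were. A further 7 were lower in both (*Acat2*, *Pmvk*, *Ggps1*, *Sqle*, *Ebp*, *Scd1*, and *Scd2*), which is 21.9% where 18.2% of all genes were. The 95% interval lay within a 2-fold change in both directions for 17 of the 32 genes. These intervals take most of their spread from all genes together, and only a small part from the samples of the gene itself. For the other 15 the interval reached past a 2-fold difference.

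**Figure D2:**
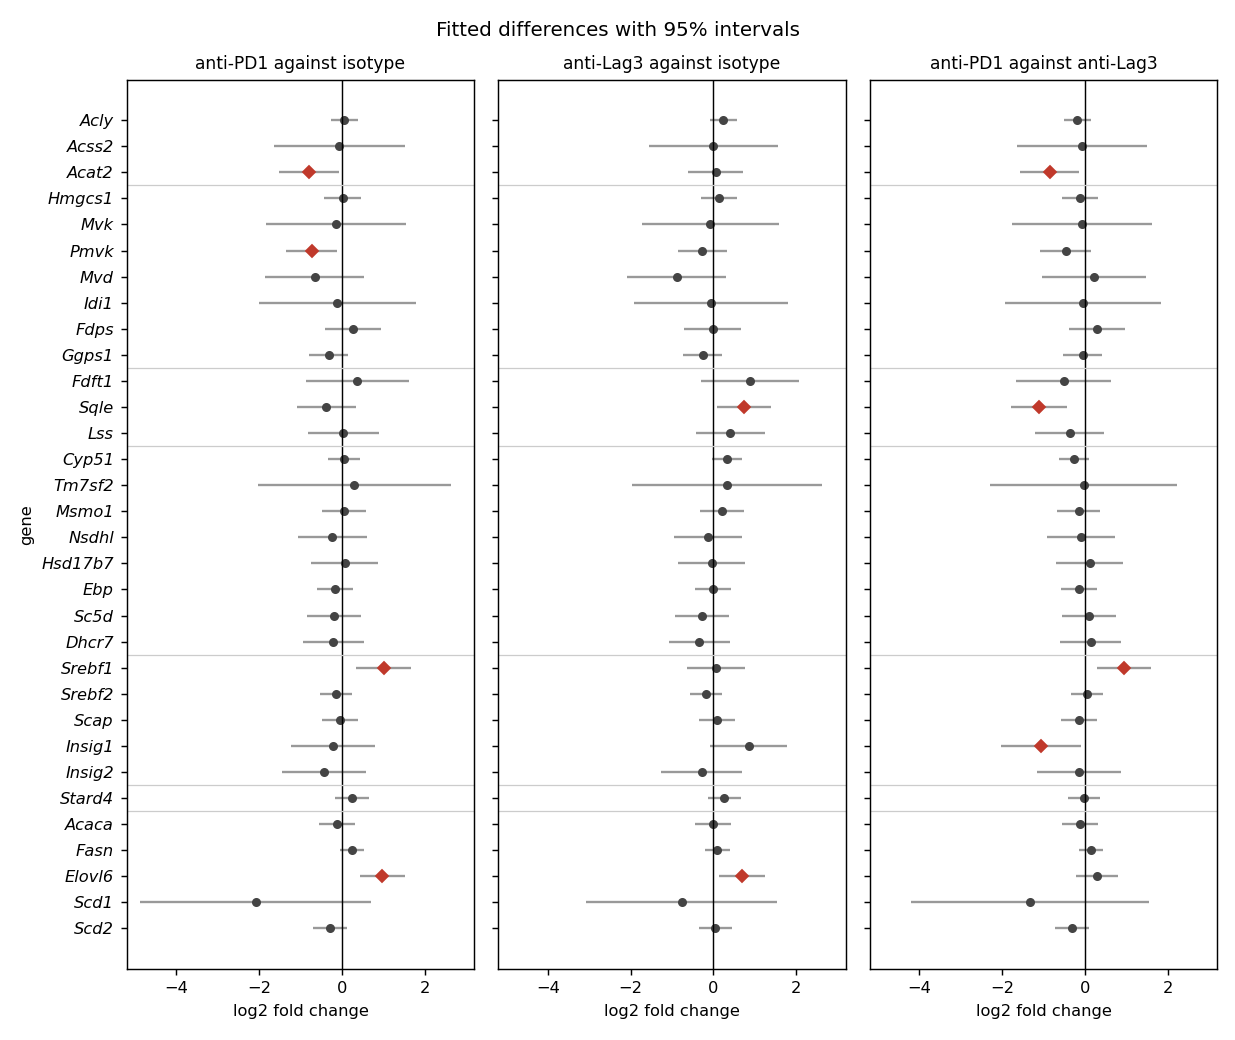
Fitted log2 fold change of each of the 32 genes in the 3 comparisons, with bars for the 95% interval and red diamonds where the unadjusted p was under 0.05. *Elovl6* and *Srebf1* lie to the right for anti-PD1 against isotype, and *Sqle* and *Insig1* to the left for anti-PD1 against anti-Lag3, and no gene passed at an adjusted p under 0.05.

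The second comparison was anti-Lag3 with isotype. None of the 32 genes passed, where 0.0421% of all genes did, and 2 of the 32 (6.25%) had an unadjusted p under 0.05, where 5.96% of all genes did. These were *Elovl6* and *Sqle*, both higher. The median log2 fold change was 0.02, with 17 genes higher, 15 lower, and a range of -0.89 to 0.89, beside 0.00 and 49.9% lower over all genes. With library totals alone as the scaling, 22 were higher and 10 lower. Their median was then 0.082, and the median over all genes also rose, to 0.062. The groups did not overlap for 3 genes that were higher, *Acly*, *Fdft1*, and *Elovl6*, and for 3 that were lower, *Mvd*, *Ggps1*, and *Scd1*. Each is 9.38% of the 32 genes, where 17.3% of all genes were higher and 17.3% lower without overlap. The interval lay within a 2-fold change for 19 of the 32. *Hmgcs1* is among these (-0.31 to 0.57), although its anti-Lag3 samples measured 44.7 and 91.7 CPM, so its interval understates the spread between them.

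*Elovl6* was higher with anti-Lag3 by 0.69 on the log2 scale (SE 0.27, 95% interval 0.15 to 1.24, adjusted p = 0.690), at a mean of 32.7 ± 6.85 CPM. The antibody groups share the isotype samples, so their 2 differences from isotype are not independent. *Sqle* (chr15:59315077-59331192) measured 19.0 and 44.9 CPM with anti-Lag3, the first within and the second above the isotype pair. Its log2 fold change was 0.74 (SE 0.32, 95% interval 0.09 to 1.39, adjusted p = 0.776) and became -0.01 without anti-Lag3 replicate 2. All 3 genes from squalene to lanosterol were higher, by 0.40 to 0.89 on the log2 scale, *Lss* (lanosterol synthase) among them at 17.3 and 10.4 CPM with anti-Lag3 against 9.42 and 11.3 CPM in isotype. *Srebf1* stood at a log2 fold change of 0.07 (95% interval -0.63 to 0.76).

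The third comparison set the 2 blockades side by side. Again none of the 32 genes passed, where 0.303% of all genes did, and the median log2 fold change of anti-PD1 over anti-Lag3 was -0.10 (9 higher, 23 lower, range -1.32 to 0.94), where all genes had a median of 0.00 with 50.4% lower. At an unadjusted p under 0.05 there were 4 of the 32 genes (12.5%), where 6.53% of all genes were. *Srebf1* was higher with anti-PD1 by 0.94 (SE 0.32, 95% interval 0.30 to 1.59, adjusted p = 0.395). The other 3 were lower: *Sqle* by a log2 fold change of -1.12 (SE 0.33, adjusted p = 0.225), *Acat2* by -0.85 (SE 0.35, adjusted p = 0.633), and *Insig1* by -1.07 (SE 0.48, adjusted p = 0.705). The *Insig1* samples overlapped, at 11.02 and 6.54 CPM with anti-PD1 and 6.33 and 29.7 CPM with anti-Lag3. Its lower value thus came from anti-Lag3 replicate 2 alone. *Elovl6* differed between the blockades by 0.28 (95% interval -0.23 to 0.79), and its samples overlapped. Without overlap, 2 of the 32 genes were higher with anti-PD1 (*Hsd17b7* and *Srebf1*, 6.25% where 18.2% of all genes were) and 3 were lower (*Acat2*, *Sqle*, and *Scd1*, 9.38% where 17.7% of all genes were). The interval lay within a 2-fold change for 18 of the 32.

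**Figure D3:**
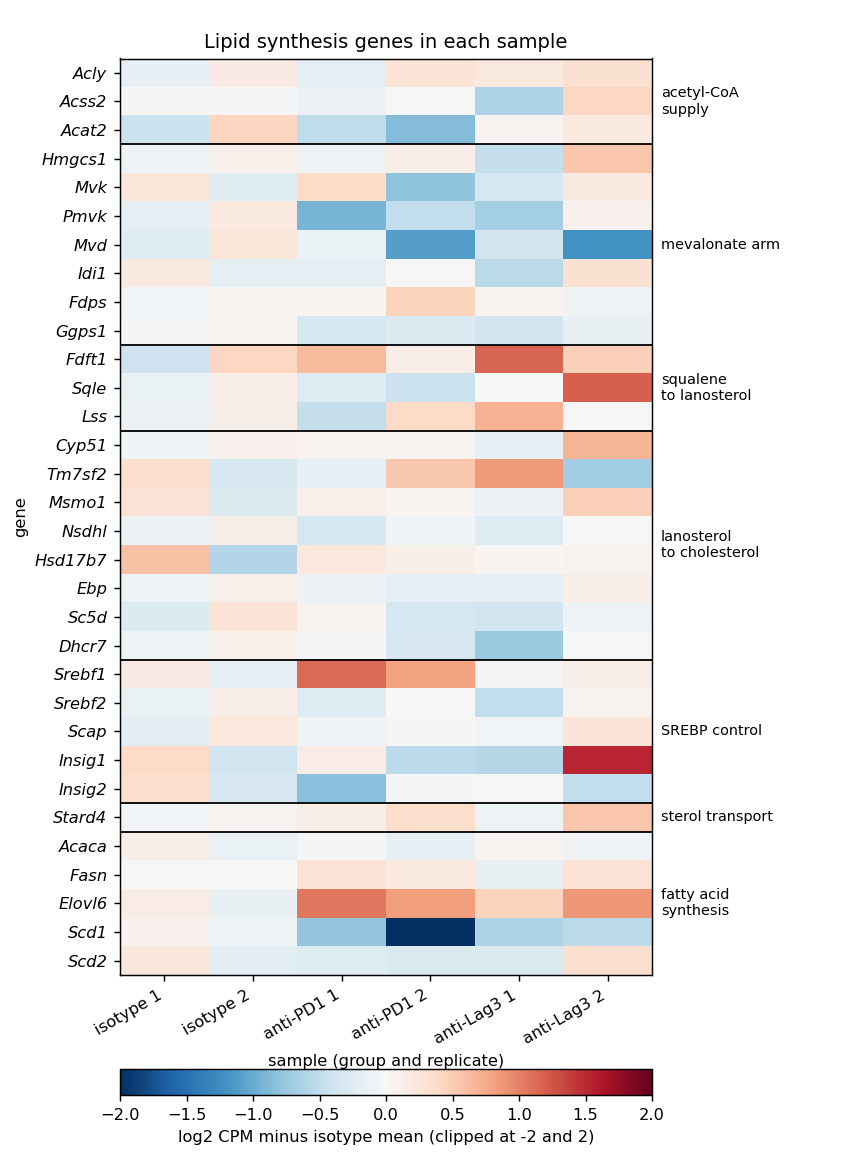
Log2 CPM of the 32 genes in each sample minus the mean of the 2 isotype samples, ordered by role, with red for higher and blue for lower and colours clipped at -2 and 2. Anti-Lag3 replicate 2 is the highest of the 6 samples for 13 genes, and *Srebf1* and *Elovl6* are red in both anti-PD1 samples.

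The 2 anti-Lag3 samples stood apart from each other in these genes. In anti-Lag3 replicate 2 the 32 genes took 0.132% of all counts, against 0.0959% to 0.107% in the other 5 samples, and summed to 1299 CPM against 938 to 1068 CPM. That sample was the highest of the 6 for 13 of the 32 genes (40.6%), where 17.3% of all genes peaked there. Anti-Lag3 replicate 1 was the lowest of the 6 for 11 genes (34.4%), where 15.2% of all genes were. A set of 7 genes (21.9%) were lowest in the first and highest in the second, where 3.25% of all genes were: *Acss2*, *Hmgcs1*, *Idi1*, *Cyp51*, *Insig1*, *Stard4*, and *Fasn*. Replicate 2 exceeded replicate 1 for 25 of the 32 genes, where 50.4% of all genes did, with a median log2 difference of 0.30 against 0.00 over all genes. The difference exceeded 1.5-fold for 11 genes (34.4%), where 12.2% of all genes did. In the isotype group 2 genes (6.25%) and in the anti-PD1 group 3 genes (9.38%) did so, where 13.7% and 13.8% of all genes did, and the median differences were 0.11 and -0.05. In each of the 3 groups 4 further genes were over 1.5-fold lower in replicate 2. In either direction 15 genes (46.9%) differed by over 1.5-fold between the anti-Lag3 samples, 6 (18.8%) between the isotype samples, and 7 (21.9%) between the anti-PD1 samples, where 26.0%, 27.7%, and 25.9% of all genes did.

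**Figure D4:**
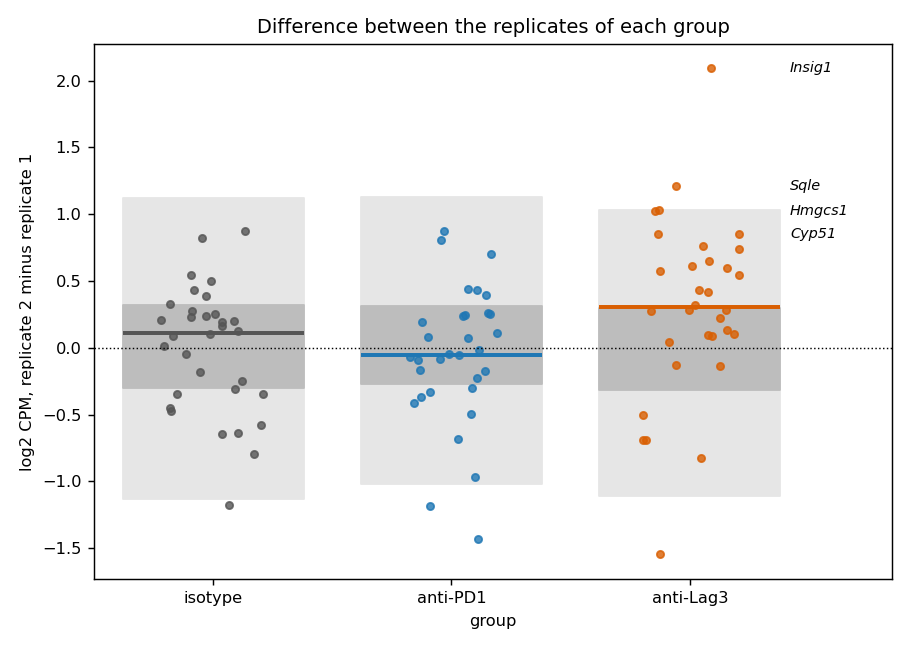
Log2 CPM of replicate 2 minus replicate 1 for each of the 32 genes (points) in each group, with a coloured line for their median, dark grey for the 25th to 75th percentile of all genes, and light grey for the 5th to 95th percentile. The medians are 0.11 in isotype, -0.05 with anti-PD1, and 0.30 with anti-Lag3, where *Insig1*, *Sqle*, *Hmgcs1*, and *Cyp51* are labelled.

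The 11 genes over 1.5-fold higher in the second anti-Lag3 sample included 7 enzymes of the sterol route (63.6%), a share near the 18 of 32 (56.2%) that this route has among the genes described. *Insig1* measured 6.33 CPM in replicate 1 and 29.7 CPM in replicate 2, the lowest and the highest of its 6 values, on 15 and 80 reads, a ratio of 4.70. *Hmgcs1* measured 44.7 and 91.7 CPM (ratio 2.05), and *Cyp51* 79.7 and 144 CPM (ratio 1.81), each again the lowest and highest of the 6. *Sqle* had a ratio of 2.37. *Stard4* measured 53.1 and 83.9 CPM (ratio 1.58), and *Scd2*, a fatty acid gene, had a ratio of 1.54. *Dhcr7*, the last reductase of the sterol route, had a ratio of 1.72 and *Msmo1*, the methylsterol oxidase, a ratio of 1.52. *Pmvk* had a ratio of 1.72, *Acss2* 2.47, and *Idi1* 2.202, the last 2 on 4 to 14 reads. In the other direction *Mvd* (14 and 8 reads), *Fdft1* (24 and 16), *Lss* (41 and 28), and *Tm7sf2* (9 and 2) were over 1.5-fold lower in replicate 2. These are low counts and cannot decide whether the shift took in the whole route. *Elovl6* and *Srebf1* are not on either list.

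Because of this spread, the anti-Lag3 values depended on which of its samples was used. Without replicate 2, 8 of the 32 genes were higher and 24 lower than in isotype, with a median of -0.15, and without replicate 1, 20 were higher and 12 lower, with a median of 0.12. Without replicate 2, *Insig1* went from 0.85 to -0.67 on the log2 scale, *Hmgcs1* from 0.13 to -0.48, and *Cyp51* from 0.32 to -0.17. For anti-PD1 against anti-Lag3 the split of 9 higher and 23 lower became 20 and 12 without replicate 2 (median 0.09) and 8 and 24 without replicate 1 (median -0.23). For this comparison *Sqle* stood at -0.36 without replicate 2 and at -1.60 without replicate 1. *Insig1* changed sign, at 0.45 without replicate 2 and -1.77 without replicate 1. Each of these values rests on 1 anti-Lag3 sample. Summed B cell markers were 82.7 CPM in anti-Lag3 replicate 1 and 122 CPM in replicate 2, and erythroid markers 21.9 and 50.5 CPM, while CD4 T cell markers were 2769 and 2611 CPM. Total counts were 2319840 and 2648920. What part any of these had in the difference between the replicates was not tested. In bulk samples such as these, fewer cells expressing a gene and less RNA per cell cannot be told apart.

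Neighbouring lipid pathways showed no gene past the threshold either. In 5 lists, 63 of 68 genes were tested, and 0 passed in any of the 3 comparisons. At an unadjusted p under 0.05, edgeR gave 3 of the 63 for anti-PD1 against isotype (4.76%, where 8.12% of all genes were), 2 for anti-Lag3 against isotype (3.17%, where 5.96% were), and 4 for anti-PD1 against anti-Lag3 (6.35%, where 6.53% were). With anti-PD1 against isotype, fatty acid elongation, desaturation, and activation had 9 of 16 genes higher and a median log2 fold change of 0.03. Fatty acid oxidation, the breakdown route in mitochondria, had 10 of 15 lower with a median of -0.12, and with anti-Lag3 12 of 15 lower with a median of -0.23. Sterol handling and efflux had 9 of 13 higher with anti-PD1 (median 0.11), and SREBP processing and turnover 6 of 9 higher (median 0.16). Isoprenoid use, which draws on the products of the mevalonate arm, had 6 of 10 lower with anti-PD1 (median -0.22) and 9 of 10 higher with anti-Lag3 (median 0.15).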

How the data were processed

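RNA from the sorted cells had been made into QuantSeq 3′ libraries and sequenced on an Illumina NextSeq. After trimming (Bbduk) and alignment to GRCm38 (STAR 2.5.2a), the authors deposited whole-number counts per Ensembl gene from HTSeq-count, without normalization. The annotation release and strand setting are not given in the sources used here. A deposited table of rlog values was not used.

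Genes with fewer than 10 reads in total were left out. All 6 samples entered a single edgeR 4.0.16 quasi-likelihood fit in R 4.3.3 with TMM scaling, and p-values were adjusted by Benjamini-Hochberg over all 11877 genes (threshold 0.05). CPM used TMM-scaled totals, and log2 CPM a prior count of 2. Intervals (95%) come from the fitted SE. That SE borrows its spread across genes (37.23 prior degrees of freedom of a median total of 40.23), so it follows the samples of a single gene only weakly. The script was tested on simulated data. With 2 samples against 2, an exact permutation test cannot go below 0.333.

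The 2 samples of a group were not the same library, since their counts had a chi-square of 2.65 to 3.29 per degree of freedom. The study describes staining of replicate mice individually and sorting them in parallel. The genes and lists were chosen with earlier results of these data known. Values in every sample were given for the 5 genes with the smallest p in each comparison and the most abundant gene of each role, other genes by range or where a role is described. DESeq2 1.42.0, limma-voom 3.58.1, other scalings, filters, and sample sets were alternatives. Positions follow GENCODE, motifs RefSeq (GRCm38.p6). Figures were drawn with matplotlib 3.10.9.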

Additional observations from a re-analysis of the deposited data

How the results depend on the processing

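Of 714 values of named genes under the alternatives, 673 kept their direction and their side of the threshold, 8 passed it in the same direction, and 33 changed sign. A missing adjusted p from DESeq2 was counted here as not passing. With anti-PD1 against isotype, 1 of the 32 genes, *Elovl6*, passed with the 4 samples of the comparison only (adjusted p = 0.0360), with library totals alone (0.0369), with a filter of 1 read (0.0482), without either anti-Lag3 sample (0.0380 and 0.0459), and at a threshold of 0.1, and DESeq2, limma-voom, and the newer edgeR method gave 0. Leaving out 1 sample gave 0 to 1 genes in that comparison and 0 to 2 between the 2 blockades. The medians then ran from -0.12 to -0.01, from -0.15 to 0.12, and from -0.23 to 0.093. The number of all genes called was 107 for anti-PD1 against isotype and 69 with DESeq2, 175 with the 4 samples only, and 46 to 161 with a sample left out, and the cause of these differences was not tested. For anti-Lag3 against isotype it was 5 and ran from 0 to 20, and between the blockades 36 and from 3 to 58.

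Log2 fold changes that changed sign did so when a sample was left out, except *Stard4* between the blockades with limma-voom (0.0020). Their ranges over the 6 omissions were, for anti-PD1 against isotype, *Acly* -0.19 to 0.26, *Hmgcs1* -0.12 to 0.13, *Fdft1* -0.017 to 0.96, *Cyp51* -0.023 to 0.14, *Srebf2* -0.27 to 0.016, *Insig1* -0.62 to 0.26. For anti-Lag3 against isotype they were *Acat2* -0.31 to 0.59, *Hmgcs1* -0.48 to 0.54, *Pmvk* -0.71 to 0.061, *Sqle* -0.011 to 1.22, *Cyp51* -0.17 to 0.68, *Srebf1* -0.11 to 0.26, *Srebf2* -0.50 to 0.065, *Insig1* -0.67 to 1.55, *Stard4* -0.098 to 0.55, *Fasn* -0.13 to 0.29, *Scd2* -0.30 to 0.31. For anti-PD1 against anti-Lag3 they were *Acly* -0.43 to 0.014, *Hmgcs1* -0.53 to 0.50, *Cyp51* -0.63 to 0.22, *Srebf2* -0.20 to 0.37, *Insig1* -1.77 to 0.45, *Stard4* -0.31 to 0.34, *Fasn* -0.052 to 0.37, *Scd2* -0.59 to 0.019. Where an omission left a group with 1 sample, that sample was taken to vary like the other groups. *Gm42418*, an ambiguous ribosomal locus, took 17.4% to 21.0% of counts, and leaving it out with the mitochondrial ribosomal RNAs changed no call among the 32 genes.

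The study describes the excluded batch as sorted and processed together, and the labels do not say whether the replicate numbers in the titles mark such batches. The deviations of same-numbered samples correlated by only 0.0206, 0.0182, and -0.0104, and the numbers were not taken as pairs. With the replicate number as a block, *Elovl6* passed for anti-PD1 against isotype (1 gene, adjusted p = 0.0494), and no other call among the 32 genes differed. The depth limits the 7 genes with under 10 reads in at least 1 sample, whose intervals are wide.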

Other observations

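Among the neighbouring lipid genes, *Acsl4*, which activates long polyunsaturated fatty acids for use in phospholipids, came nearest to the threshold. It was picked out after its values were seen. It measured 65.0 and 78.1 CPM in isotype, 112 and 109 CPM with anti-PD1, and 79.3 and 93.6 CPM with anti-Lag3, so both anti-PD1 samples were above all 4 others. Its log2 fold change for anti-PD1 against isotype was 0.62 (SE 0.17, edgeR, adjusted p = 0.0582). *Cpt1a*, which admits fatty acids to mitochondria for oxidation, was also picked out after its values were seen. It had 16 and 43 reads in isotype, 11 and 10 with anti-PD1, and 17 and 29 with anti-Lag3, and a log2 fold change of -1.42 for anti-PD1 against isotype (SE 0.51, adjusted p = 0.266).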
